A study of Mus musculus with 6 samples.

Results

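Voltage-gated sodium, calcium and HCN channels set the excitability of cortical neurons, and their transcripts were followed here in mouse primary somatosensory (S1) cortex with and without whisker stimulation (WS). The genes were chosen by symbol, as all Scn genes of the alpha and beta subunits, all Cacna and Cacnb genes, and all Hcn genes. The rule used no measured value, but the families were chosen with earlier results of these data known. Of the 14824 genes with deposited values, 34 belonged to these families, namely 8 sodium alpha, 4 sodium beta, 7 high-voltage-activated calcium alpha1, 3 T-type calcium alpha1, 4 calcium alpha2delta, 4 calcium beta and 4 HCN genes. Scn4a and Scn10a, the other members of these families in the GENCODE M21 annotation, were not analysed here.

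Bulk RNA-seq had been performed on total RNA of S1 cortex from WT C57B6 mice at postnatal day 21, with 3 non-stimulated (NS) and 3 WS libraries, all collected 90 min after the last stimulation. The WS tissue came from mice stimulated daily for 8 days from postnatal day 14, and the study's scheme takes the barrel cortex of the non-stimulated side as NS. The study's figure legends count 3 male mice for the RNA-seq, and neither they nor the labels tie a library to a mouse, so NS and WS libraries may come from the same mice. The labels accepted RNA with an integrity number above 2, a low limit, and give no value per sample.

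Sodium channels are built from a large pore-forming alpha subunit, which carries the upstroke of the action potential, and smaller beta subunits that adjust gating and surface level. High-voltage-activated calcium channels combine a pore-forming alpha1 subunit with an intracellular beta and an extracellular alpha2delta subunit, and admit the calcium that triggers transmitter release and activity-dependent transcription. T-type channels open near rest and support burst firing. HCN channels open on hyperpolarization, bind cyclic AMP and carry the current Ih that shapes dendritic integration in pyramidal neurons.

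The libraries held 15660395 to 17276168 counts over all listed genes, of which the 34 channel genes took 0.417% to 0.430%. Levels are given as CPM, in which counts are scaled to library size with TMM factors, and levels of different genes are compared only per kb of exon. Before any comparison of groups, 2 WS libraries stood apart. Among the 15 pairs of libraries, counts differed most between WS replicates 1 and 3, with a chi-square per degree of freedom of 21.5 against 4.49 for the closest pair. This difference went with base composition. Over the 32 channel genes with enough counts, the log2 difference between WS replicates 1 and 3 had a correlation of r = 0.73 with the GC content of the longest transcript, and over 13719 genes r was 0.52. With transcript length, the same difference had r = -0.61 over the 32 genes. Genes measured in the same libraries are not independent. Values without these libraries are given below for some of the genes that moved with them.

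Base composition differs widely between paralogs of the same subfamily, and the sequences of 1 such pair are shown because their WS values ran in opposite directions. The stretches come from GENCODE M21 transcripts on GRCm38, on the coding strand, and both encode the same residues throughout, so that all differences are synonymous. Capitals mark the bases that differ. The stretches cover 52 codons of the guanylate kinase-like domain of the calcium channel beta subunit, from codon 210 of Cacnb4 (chr2:52428320-52676831, minus strand) and codon 169 of Cacnb3 (chr15:98630840-98644529, plus strand).
Cacnb4: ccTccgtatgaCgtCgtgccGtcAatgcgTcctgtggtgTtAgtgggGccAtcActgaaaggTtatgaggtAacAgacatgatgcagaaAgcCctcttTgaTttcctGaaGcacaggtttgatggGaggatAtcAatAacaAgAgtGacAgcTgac
Cacnb3: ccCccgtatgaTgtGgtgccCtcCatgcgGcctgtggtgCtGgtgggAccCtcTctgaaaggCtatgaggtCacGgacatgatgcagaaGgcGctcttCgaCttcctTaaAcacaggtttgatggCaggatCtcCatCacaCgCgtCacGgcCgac
Here 29 of 156 bases differ, 27 of them at the third position. G or C stands at 24 of the 29 differing bases in Cacnb3 and at 9 in Cacnb4, and the longest transcripts have a GC content of 61.3% and 40.5%.

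No channel gene passed the test between WS and NS. Transcripts of all 7 subfamilies were present in S1 cortex with and without stimulation, their summed levels overlapped between the groups in every subfamily, and the whole set took 4223 ± 75.3 CPM in NS and 4275 ± 76.6 CPM in WS (mean ± SD, n = 3 libraries a group). Of the 34 genes, 32 had enough counts for edgeR's quasi-likelihood test. None reached an adjusted p under 0.05 with an absolute log2 fold change above 1, which 4 of 13747 genes did (0.0291%), and every channel gene had an adjusted p of 0.9998. The log2 fold change was above 0 in 15 genes and below 0 in 17, and above 0 in 8 genes once a GC trend was removed from each library. Its median was -0.0071 over the channel genes and 0.0074 over all tested genes, and the median absolute log2 fold change was 0.063 and 0.069. The 26 channel genes with at least 100 counts on average lay between -0.14 and 0.23. By subfamily the median log2 fold change was -0.058 for sodium alpha, 0.045 for sodium beta, -0.0071 for high-voltage-activated and 0.055 for T-type calcium alpha1, 0.099 for alpha2delta, -0.036 for calcium beta and 0.0092 for HCN genes. When single libraries were left out, this median took both signs in each subfamily except alpha2delta and calcium beta. For calcium beta it ran from -0.055 without the third NS library to -0.0084 without the second.

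At an unadjusted p under 0.05, edgeR's test gave 1 channel gene higher in WS, Hcn2, and 0 lower, while of all tested genes 0.866% were higher and 0.327% lower at this limit. The 3 WS values lay wholly above the 3 NS values in 1 channel gene, again Hcn2, and wholly below in 1, Cacna2d1, against 3.11% and 3.16% of all tested genes. With the replicate number as a block, 2 channel genes were higher at an unadjusted p under 0.05, Hcn2 and Cacna2d2, and 1 was lower, and none had an adjusted p under 0.9999. In that fit 1.77% of all tested genes were at this limit in either direction, against 1.19% without the block. DESeq2 gave the same single gene, Hcn2, and 0.594% of all its genes.

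**Figure D1:**
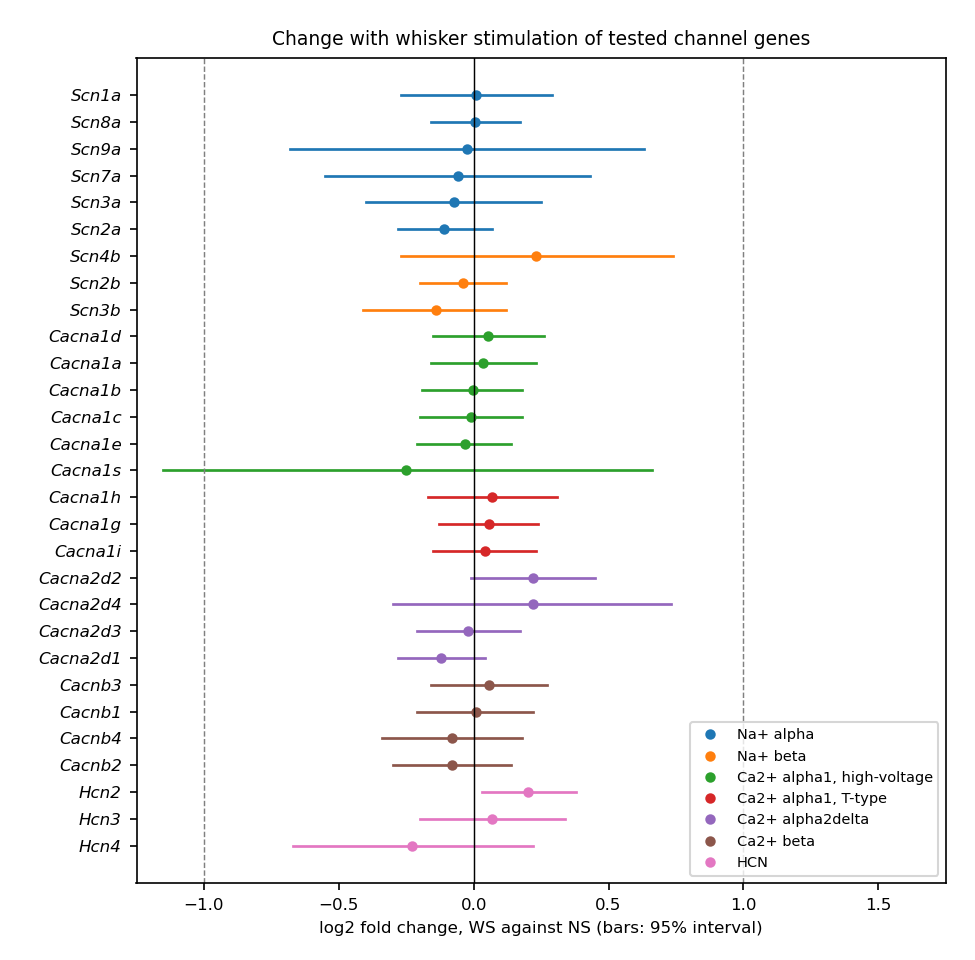
Log2 fold change of WS against NS (points, horizontal axis) with its 95% interval (bars) for 29 tested channel genes, coloured by subfamily, with the dashed lines at the threshold of -1 and 1. Points lie between -0.25 (Cacna1s) and 0.23 (Scn4b), and the interval of Hcn2, from 0.031 to 0.38, is the only one of those plotted that leaves out 0.

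Among the sodium alpha subunits, per kb of exon, Scn2a, Scn8a and Scn1a made up nearly all of the level, and none of the 3 passed the test between groups. Scn2a (chr2:65620771-65767447), the alpha subunit of excitatory neurons that is prominent early in development, was at 335, 337 and 302 CPM in the NS libraries. In the WS libraries it was at 284, 301 and 321 CPM, a log2 fold change of -0.11 (SE 0.079) with overlapping groups. The log2 fold change of Scn2a was -0.062 without the first WS library and -0.15 without the third. Scn2a held 39.7 ± 1.76% of the alpha level per kb in NS and 38.1 ± 1.17% in WS (mean ± SD, n = 3 libraries a group).

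Scn8a, the alpha subunit of the axon initial segment and nodes in mature neurons, held 34.7 ± 1.61% in NS and 36.0 ± 2.02% in WS (mean ± SD, n = 3 libraries a group), with a log2 fold change of 0.0055 (95% interval -0.16 to 0.17). Scn2a and Scn8a stood side by side at 24.6 and 22.4 CPM per kb on average over the 6 libraries. Scn1a, the main alpha subunit of fast-spiking interneurons, followed at 13.2 CPM per kb. Its NS values of 143, 151 and 145 CPM lay close together. Its WS values of 119.8, 138 and 183 CPM held both the lowest and the highest of the 6 libraries, so that a log2 fold change of 0.0094 came with an interval from -0.27 to 0.29.

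Scn3a, the alpha subunit most abundant before and around birth, was lower, at 2.46 CPM per kb, and its range of 23.7 to 37.5 CPM in WS enclosed the range of 29.3 to 34.3 CPM in NS. Fewer cells of a type and less RNA per cell cannot be told apart in such bulk samples. Scn1a, Scn2a, Scn3a, Scn7a and Scn9a lie on chromosome 2 and share long stretches of similar sequence, and how reads that match several of them were counted is not given in the sources used here.

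Other alpha subunits were sparse. Scn7a, an atypical channel linked to salt sensing, had 44 to 67 counts per library, and Scn9a, known from peripheral sensory neurons, had 13 to 17. Scn11a, another sensory neuron channel, had 7, 2 and 2 counts in NS and 4, 1 and 1 in WS and did not pass the filter on low counts.

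No sodium beta subunit passed the test between groups. Scn2b, which is bound to the alpha subunit by a disulfide bridge, was at 222 to 250.2 CPM in NS and 227 to 238 CPM in WS. Scn3b ranged from 94.04 to 129 CPM in NS and from 85.5 to 105 CPM in WS. Scn4b, whose product contributes to resurgent sodium current and which is abundant in striatum, was more variable. It was at 38.8, 59.5 and 66.3 CPM in NS and at 46.9, 90.6 and 56.1 CPM in WS (log2 fold change 0.23, SE 0.23). The summed level of 8 striatal markers moved with it, at 281, 376 and 396 CPM in NS and 300.0, 610.0 and 260 CPM in WS. Both were highest in the second WS library, without which the log2 fold change of Scn4b was -0.10, and the part of striatal tissue in these values was not tested.

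**Figure D2:**
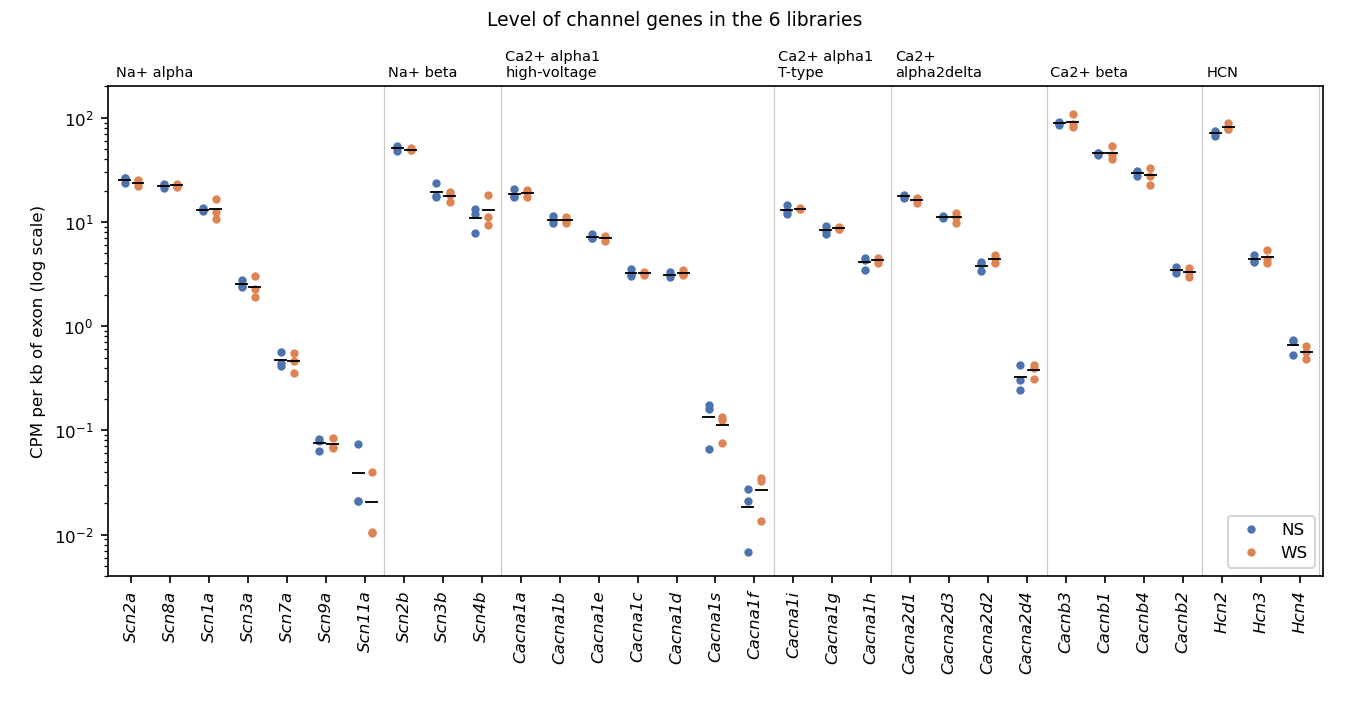
CPM per kb of exon (vertical log axis) of 31 channel genes by subfamily, with a point for each NS (blue) and WS (orange) library and a black line at the mean of each group. Cacnb3 is at 90.3 CPM per kb, the 2 genes that did not pass the filter on low counts, Scn11a and Cacna1f, lie under 0.1 together with Scn9a, and NS and WS points overlap in every gene shown but Hcn2 and Cacna2d1.

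Among the high-voltage-activated calcium alpha1 subunits, Cacna1a, Cacna1b and Cacna1e had the highest levels per kb, in this order in both groups, and no gene of the subfamily passed the test. Cacna1a (chr8:84388440-84640246), the P/Q-type channel of presynaptic terminals, held 43.4 ± 1.31% of the subfamily's level per kb in NS and 44.1 ± 1.88% in WS (mean ± SD, n = 3 libraries a group). Its values were 203, 235 and 198 CPM in NS and 232, 219.6 and 199.8 CPM in WS, a log2 fold change of 0.035 (95% interval -0.16 to 0.23). The N-type Cacna1b, also presynaptic, held 24.5% in NS and 24.2% in WS, and the R-type Cacna1e held 16.9% and 16.4%. With the longest transcript in place of all exons as the length, Cacna1e stood above Cacna1b.

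The L-type genes Cacna1c and Cacna1d, which couple calcium entry to transcription, were at 3.23 and 3.18 CPM per kb, or at 5.20 and 4.15 with the longest transcript as the length. Their log2 fold changes were -0.0098 (95% interval -0.20 to 0.18) and 0.054 (-0.15 to 0.26). For Cacna1d, exons overlap those of Chdh on the other strand, and whether the counting used strand is not given in the sources used here. The last members of the subfamily are the muscle gene Cacna1s, with 7 to 18 counts per library, and the retinal gene Cacna1f. Cacna1f had 3, 4 and 1 counts in NS and 5, 2 and 5 in WS and did not pass the filter. Summed over the 7 genes, the level was 607 ± 32.4 CPM in NS and 609 ± 9.18 CPM in WS (mean ± SD, n = 3 libraries a group).

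All 3 T-type genes had a log2 fold change slightly above 0, between 0.041 and 0.068, and none passed the test. Cacna1i (chr15:80287238-80398279), known from thalamic reticular and cortical neurons, led with 13.2 CPM per kb. It was at 117, 144 and 124.5 CPM in NS and at 131, 130.0 and 136 CPM in WS, all WS values within the NS range. Cacna1g followed at 8.55 and Cacna1h at 4.19 CPM per kb, with log2 fold changes of 0.055 (SE 0.083) and 0.068 (SE 0.11). The summed T-type level was 253 ± 24.3 CPM in NS and 262 ± 2.41 CPM in WS (mean ± SD, n = 3 libraries a group). The 3 WS libraries thus lay within 5 CPM of each other while the NS libraries ranged from 237 to 281 CPM. After the GC trend was removed from each library, the log2 fold changes of all 3 genes were below 0, between -0.025 and -0.0042. When single libraries were left out, they ran from -0.0012 to 0.13 for Cacna1g, -0.036 to 0.14 for Cacna1h and -0.023 to 0.13 for Cacna1i.

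The alpha2delta subunits, which carry calcium channels to the synapse, included the only channel gene whose WS values all lay below its NS values. Cacna2d1 (chr5:15934691-16374511), a binding site of gabapentin, was at 226, 221 and 213 CPM in NS and at 190.2, 212 and 205 CPM in WS. The nearest values of the groups, 213 and 212 CPM, almost touched. The log2 fold change was -0.12 (SE 0.073, 95% interval -0.28 to 0.041), and an exact two-sided permutation test gave p = 0.1, the smallest that 3 against 3 allows.

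Cacna2d2, also a gabapentin binding site, was at 32.6, 31.5 and 26.9 CPM in NS and at 38.0, 32.4 and 35.7 CPM in WS. The second WS library lay just under the highest NS library. In edgeR's test its log2 fold change of 0.22 (SE 0.11) had an unadjusted p of 0.0578, and with the block an unadjusted p of 0.0477 and an adjusted p of 0.9999. It was 0.14 without the third NS library, 0.17 without the first WS library and 0.18 with the GC trend removed. Cacna2d3 was at 94.97 to 100.1 CPM in NS and 85.9 to 106 CPM in WS. Cacna2d4, known from the retina, had 37 to 64 counts per library and a log2 fold change of 0.22 (SE 0.24), which was 0.049 without the third and 0.46 without the second NS library. Across the 4 genes the changes went both ways, and the summed level was 351 ± 12.7 CPM in NS and 338 ± 7.30 CPM in WS (mean ± SD, n = 3 libraries a group).

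Of the calcium beta subunits, which bring the pore-forming subunit to the membrane, Cacnb3 was the most abundant at 90.3 CPM per kb, followed by Cacnb1 at 45.6, Cacnb4 at 28.8 and Cacnb2 at 3.39. With the longest transcript as the length the order was the same, and Cacnb2 was at 8.91 CPM per kb. Cacnb3 was at 367, 343 and 356 CPM in NS and at 432, 349 and 326 CPM in WS, with a log2 fold change of 0.055 (SE 0.10). Cacnb4, the beta subunit whose loss gives the lethargic mouse, was at 269.9, 279 and 245 CPM in NS and at 205, 249.6 and 298 CPM in WS (-0.079, SE 0.12).

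The WS libraries thus ran in opposite order in these paralogs, whose sequences are shown above. Cacnb3 was highest and Cacnb4 lowest in the first WS library, and the reverse held within WS for the third. Cacnb4 held 12.2%, 17.1% and 21.0% of the beta subunit level per kb in the 3 WS libraries against 16.5% to 18.7% in NS. Cacnb1 ran as Cacnb3 did, at 241, 201 and 180.1 CPM in WS against 199.5 to 209.5 CPM in NS. For Cacnb2, the values of 39.3, 43.3 and 47.9 CPM in WS ran as those of Cacnb4, with 43.0 to 48.9 CPM in NS. The log2 fold change of Cacnb2, -0.082, was -0.013 without the first WS library and -0.16 without the third.

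In the HCN family Hcn2 was the dominant gene and the 1 that differed most between groups relative to its error. Per kb it was at 76.5 CPM on average over the 6 libraries. It was at 214, 236 and 231 CPM in NS and at 283, 252 and 249.9 CPM in WS. All WS values lay above all NS values, and the first WS library was well above the others. The log2 fold change was 0.20 (SE 0.079, 95% interval 0.031 to 0.38), a 1.15-fold higher level. In edgeR's test the unadjusted p was 0.0248 and the adjusted p 0.9998, and the exact two-sided permutation test gave p = 0.1.

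Several values moved with Hcn2. Its transcript has the highest GC content of the 32 tested channel genes. With the GC trend removed, edgeR's test gave a log2 fold change of 0.094 (SE 0.068, unadjusted p = 0.193, adjusted p = 0.9999). Without the first WS library the same test gave 0.14 (unadjusted p = 0.0621, adjusted p = 1.0), and without the third 0.24 (unadjusted p = 0.0119, adjusted p = 0.884). Without the first NS library, in which Hcn2 was lowest, it gave 0.16 (unadjusted p = 0.1215, adjusted p = 0.9995). The summed level of 6 interneuron markers was 1001 to 1038 CPM in NS and 1064 to 1154 CPM in WS, which also did not overlap, nor did the endothelial and pericyte sums given below. The part of GC content and of cell makeup in the Hcn2 values was not tested beyond these fits.

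Hcn3, at 4.51 CPM per kb, ranged from 17.2 to 20.2 CPM in NS and from 16.7 to 22.4 CPM in WS, and some of its exons overlap Pklr on the other strand. Hcn4, the pacemaker channel of the heart, had 47 to 72 counts per library and a log2 fold change of -0.23 (SE 0.20). When single libraries were left out, this value ran from -0.37 to -0.13.

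Within WS, the values of the channel genes ran with base composition. Of the 9 genes with a GC content under 45%, all 9 were lower in the first than in the third WS library, with a median log2 difference of -0.33. The genes under 45% included Scn1a, Scn2a, Scn3a, Scn7a, Scn9a, Cacna2d1, Cacnb2 and Cacnb4. In 8 of the 9, though not in Scn9a, the first WS library was the lowest of all 6. Over 3367 tested genes in the same GC range, the median was -0.25, and 14.55% were higher in the first. Of the 11 channel genes from 45% to 55%, 3 were higher in the first than in the third, against 50.3% of 7068 genes. Their median was -0.083, against 0.0021. Of the 12 genes over 55%, 9 were higher in the first than in the third, against 81.8% of 3284 genes, with a median of 0.20 against 0.23. Cacna1h and Cacna1i were among the exceptions. The extremes were Scn3a at -0.65 and Cacnb1 at 0.42.

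**Figure D3:**
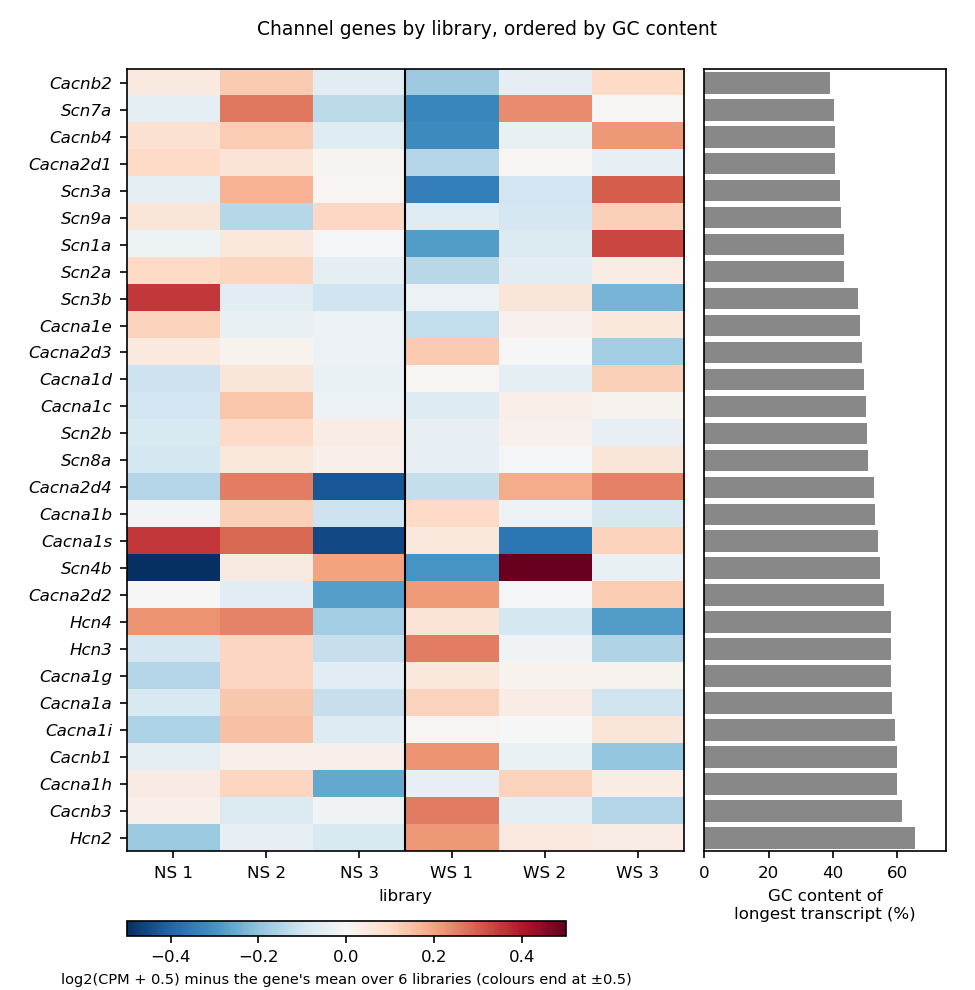
Heat map of log2(CPM + 0.5) minus the gene's own mean, for 29 tested channel genes (rows, ordered by GC content, shown as grey bars in %) in the 6 libraries (columns). The first WS library is blue for GC-poor genes at the top and red for GC-rich genes at the bottom, the third WS library runs largely the other way, and Scn4b shows single libraries far from the rest.

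**Figure D4:**
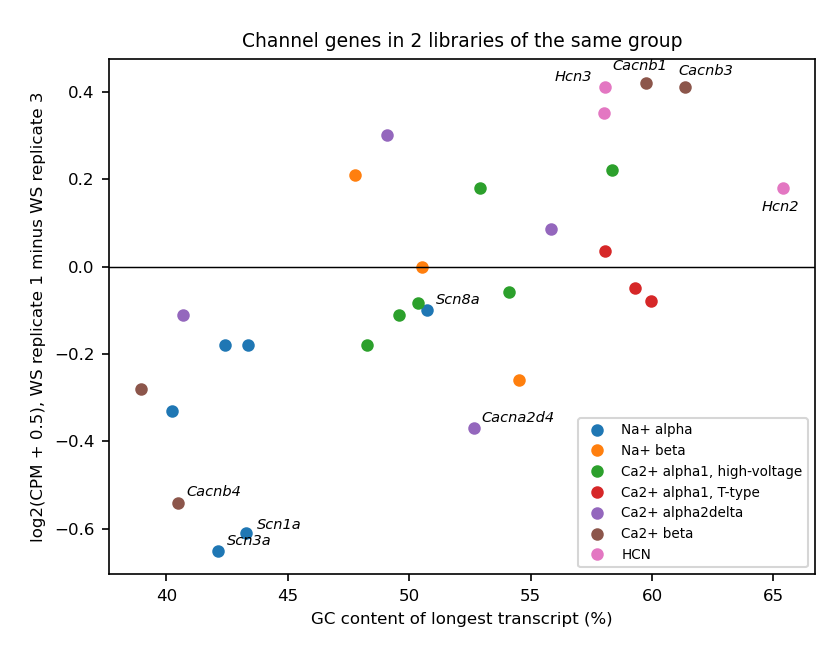
Log2 difference in CPM + 0.5 between WS replicates 1 and 3 (vertical axis) against GC content in % (horizontal axis), with 1 point for each of 29 tested channel genes, coloured by subfamily. The points run from Scn3a at -0.65 to Cacnb1 at 0.42, and members of the same subfamily, such as Cacnb4 and Cacnb3, lie far apart.

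Which channel genes were at an unadjusted p under 0.05 between WS and NS depended on single libraries of both groups. Without the third WS library, edgeR's test gave 5 channel genes at an unadjusted p under 0.05, 4 lower, Scn1a (-0.18), Scn3a (-0.27) and Cacnb4 (-0.22) among them, and Hcn2 (0.24) higher, all with an adjusted p of 0.884. In that fit 4.41% of all tested genes were at this limit, against 1.19% with all libraries. Without the first WS library 0 channel genes were, against 3.09% of all tested genes in that fit, and the log2 fold changes of Scn1a, Scn3a and Cacnb4 were then above 0, at 0.14, 0.071 and 0.047. Those of Cacnb1, Cacnb3 and Cacna2d1 were then -0.11, -0.073 and -0.076. Without the first NS library Cacna2d2 was at this limit and Hcn2 was not (0.808% of all tested genes). Hcn2 stayed alone without the second NS library (1.52%), a second gene joined it without the third (1.37%), and Cacna2d2 joined it without the second WS library (1.48%). The 4 lower genes all have a GC content under 45%. The coefficient of variation was larger in WS than in NS in 17 of 32 channel genes (53.1%) and in 64.1% of all tested genes, and its median over the channel genes was 8.42% in NS and 10.5% in WS.

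Genes whose products bind or regulate these channels were described in the same way, with some related genes. The related genes included the Cacng family, Nalcn, Unc79 and Unc80. The list held 33 genes, among them the fibroblast growth factor homologous factors Fgf11 to Fgf14, the ankyrins Ank2 and Ank3 of the axon initial segment, the calmodulins, the Cacng family and the HCN trafficking factor Pex5l. Of these, 32 were tested and Rem1 had too few counts. In edgeR's test, 0 of the 32 were at an unadjusted p under 0.05, against 1.19% of all tested genes. The WS values lay wholly above the NS values in 1 and wholly below in 0, against 3.11% and 3.16% of all tested genes. The log2 fold change was above 0 in 13 and below 0 in 19, and the median was -0.014.

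Marker genes show which cells the libraries held. The summed level of 6 pan-neuronal markers was 5977 to 6141 CPM in NS and 5681 to 6062 CPM in WS, and 2 of the 6 had a log2 fold change above 0. For 6 excitatory neuron markers, Slc17a7 among them, it was 2644 to 2778 CPM in NS and 2330 to 2996 CPM in WS, again with 2 of 6 above 0. The log2 fold change was above 0 in 53.0% of all tested genes. Of the glial and vascular lists, it was above 0 in all markers of astrocytes (8 of 8), oligodendrocytes (6 of 6), their precursors (4 of 4), endothelial cells (6 of 6, and 5 of 6 with total counts alone or the GC trend removed) and pericytes (5 of 5), and in 4 of 5 of microglia, with Cx3cr1 at -0.11. It was also above 0 in 5 of 6 interneuron markers, with Vip at -0.098, and in 8 of 8 striatal markers. Of all the marker lists, the summed levels did not overlap between groups for interneurons, given above, endothelial cells and pericytes. The endothelial sum was 161 to 185 CPM in NS and 186 to 217 CPM in WS, and the pericyte sum 242 to 244 CPM in NS and 246 to 290 CPM in WS. The nearest pericyte sums of the groups, 243.7 and 246.4 CPM, were close, and in 0 of the 5 pericyte markers alone did the groups not overlap. The endothelial difference rested on Pecam1, an adhesion molecule of endothelial cells, at 17.2, 16.3 and 19.2 CPM in NS and 22.2, 33.0 and 41.5 CPM in WS, without which the sums of 144 to 166 CPM in NS and 153 to 175 CPM in WS overlapped. None of these markers reached an adjusted p under 0.05 in edgeR's test, and their part in the channel values was not tested. Of the other lists, microglial markers summed to 284 to 299 CPM in NS and 293 to 313 CPM in WS, thalamic markers (3 of 4 above 0) to 31.1 to 35.2 and 32.05 to 40.5, and the choroid plexus markers analysed here (1 of 4 above 0) to 31.3 to 74.7 and 9.54 to 86.1. For 3 skeletal muscle markers the sums were 16.9 to 19.0 and 17.8 to 22.8 CPM, beside the 0.435 to 1.14 CPM of Cacna1s. Most of these sums was Acta1, at 15.8 to 21.2 CPM over the 6 libraries. Mylpf was at 0.247 to 0.559 CPM and Myh4 at 0.311 to 1.45 CPM.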

How the data were processed

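S1 cortex of 3 NS and 3 WS samples was sequenced as bulk RNA. Reads of rRNA or of low quality had been discarded by the authors before alignment with HISAT2, and mm10 is the build in the submitters' processing notes. The counting tool and strand setting are not given in the sources used here. For every gene the deposited table gives an estimated count, which is the authors' average of the 6 libraries without depth scaling, together with the SD. The authors made the z-score of a library by subtracting that average and dividing by the SD, and deposited these scores and their group means. A second deposited table with the authors' own comparison (fold changes and p-values) was not used. The column name of WS replicate 3 carries an extra letter, and the authors' deposited WS mean of z-scores equals the mean of that column and the other WS columns within 0.000667.

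Counts were computed back as mean plus z-score times SD and rounded to whole numbers. In the 13418 genes with under 0.1 count of uncertainty, 88.5% of values were whole within the rounding of the deposited decimals, against 4.53% expected by chance. The planned count test was applied to these counts, although the table used holds z-scores rather than counts or FPKM for each library. For the channel genes the uncertainty was at most 0.0903% of the mean. No pair of libraries agreed within sampling noise.

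NS and WS were compared by the quasi-likelihood F test of edgeR 4.0.16 in R 4.3.3, after TMM scaling and filterByExpr, with Benjamini-Hochberg adjustment over 13747 genes. A call needed both an absolute log2 fold change above 1 and an adjusted p under 0.05. The SE of each gene was computed from its F statistic. The biological coefficient of variation was 10.1%, from the dispersion common to all tested genes. The main edgeR fit, but none of the alternatives, was also run on simulated counts that held no GC trend, with the outcome not reported here. GC content, exon length and coordinates came from GENCODE M21 (GRCm38), which matched 99.8% of listed genes, the 34 channel genes among them. Log2 deviations used CPM + 0.5. Python 3.11.15 and SciPy 1.17.1 gave the permutation tests and summaries, and DESeq2 1.42.0 an alternative.

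Same-numbered NS and WS libraries deviated together from their group means over 13747 genes (r = 0.342, 0.228 and 0.124), which was the rule for taking the numbers as pairs, and the blocked values are given where they change a count. For the third pair r was 0.0677 over genes with at least 100 counts, and no source used here says which samples share an animal. The family members, the list of channel partners and the marker lists were chosen with earlier results of these data known. Channel genes were named by a rule, with values per library for the gene with the highest level per kb of each subfamily, for genes at an unadjusted p under 0.05, for genes whose groups did not overlap and for genes under the filter. Values per library of other genes were added after they were seen. Some results under this rule are not reported here, while counts, medians and sums cover all channel genes. Alternatives were other normalizations and filters, DESeq2, the block, omission of single libraries and removal of a loess GC trend (span 0.3), the last chosen after seeing the data.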

Additional observations from a re-analysis of the deposited data

How the results depend on the processing

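Over 15 alternative fits, 0 of 480 values of the channel genes passed an adjusted p of 0.05 (lowest 0.884), so the absence of calls held in all of them. Of these values, 53 had another sign than with all libraries, spread over 20 of the 32 genes, and 12 genes kept their sign throughout. The number of channel genes higher at an unadjusted p under 0.05, 1 as reported, was 2 with the replicate block, 0 with the GC trend removed, 0 with the GC trend removed and the replicate block (where 1.77%, 1.753% and 2.52% of all tested genes were at this limit in either direction, against 1.19% as reported), and between 0 (without WS replicate 1) and 2 (without WS replicate 2) when each library was left out. The number lower, 0 as reported, was 1 with the replicate block, 1 with the GC trend removed and the replicate block, and between 0 and 4 with each library left out, the 4 without WS replicate 3 and 1 without NS replicate 3. The number of partner genes at that limit lay between 0 and 2, the 2 without WS replicate 3, where 4.41% of all tested genes were at this limit. The median log2 fold change of the sodium beta genes, 0.045 as reported, ran from -0.085 (without WS replicate 2) to 0.090 (without WS replicate 3) when each library was left out, and that of the alpha2delta genes, 0.099, from 0.0041 (without NS replicate 3) to 0.12 (without NS replicate 2). The block, other normalizations, other filters and DESeq2 changed no other call. The cause was not tested. Depth limits Scn11a and Cacna1f, which were not tested, and Cacna1s and Scn9a, with at most 18 counts in any library, whose 95% intervals ran from -1.15 to 0.66 and from -0.68 to 0.63. The z-scores give counts for listed genes alone.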

Other observations

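Of the genes on the list of channel partners, chosen here after their values were seen, Cacng2, whose product stargazin is an auxiliary subunit of AMPA receptors, was at 120.0, 129 and 125 CPM in NS and at 158, 135 and 129.9 CPM in WS. The WS values lay wholly above the NS values, as in 3.11% of all tested genes, but the margin between 129.4 and 129.9 CPM was small. In edgeR's test the log2 fold change was 0.17 (SE 0.087) with an adjusted p of 0.9998. Without WS replicate 3 it was 0.23 and without WS replicate 1 it was 0.084. Fgf14, which binds sodium channels at the axon initial segment, was at 74.3, 74.2 and 69.1 CPM in NS and at 56.3, 66.5 and 74.7 CPM in WS (-0.14, SE 0.10). Its log2 fold change was -0.24 without WS replicate 3 and -0.039 without WS replicate 1, and its WS libraries ran in the same order as those of Scn1a and Cacnb4.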
